A study of Bos taurus with 14 samples.

Results

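HOX genes encode homeodomain transcription factors that give cells along the body axis their regional identity. They lie in clusters named A, B, C and D. Within a cluster the position number runs from genes active early and near the head to genes active late and towards the tail and the limb tips. In pluripotent cells the clusters are known to be held silent under polycomb complexes, whereas fibroblasts of adult skin are known to keep a HOX pattern of the body site they came from.

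The HOX genes of cattle were taken from the deposited expression files by name: every entry spelled HOXA, HOXB, HOXC or HOXD with a number after it and no copy suffix. This gave 36 genes among 23159 usable features in the files of the controls and of the first stem cell passage, and among 24616 in the files of the later passages. The HOXA cluster held 11 members, HOXB 8, HOXC 9 and HOXD 8. By position number, 8 were anterior (1 to 3), 12 central (4 to 8) and 16 posterior (9 to 13). Each set of files listed 35 of the 36, with HOXA9 named in the first set alone and HOXD11 in the later set alone. The RefSeq table of cattle genes (assembly ARS-UCD2.0) names 39 HOX genes, and HOXB6, HOXB8 and HOXD8 were not analysed here.

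The 14 RNA-seq libraries came from embryonic stem cells derived from bovine blastocysts (bESC), from whole blastocysts and from skin fibroblasts. The passages (P) sequenced were P10, P13, P23, P35 and P45 for stem cell line A, and P10, P12, P24, P35 and P46 for line B. The basal CTFR medium had no growth factors of its own and was given human FGF2 and the WNT pathway inhibitor IWR1. Feeder cells in the wells were embryonic fibroblasts of the mouse (MEFs), and nothing states that feeder cells were removed before RNA isolation. The passages of a line are serial samples of 1 culture. The controls were 2 pools of 10 whole blastocysts, labelled in vivo, and 2 lines of skin fibroblasts. A blastocyst pool holds trophectoderm and hypoblast beside the epiblast. The sources used here do not give the animals' age or the skin site. Each line or pool was 1 library at a time, so p-values below measure the spread between these libraries.

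The values are RPKM, reads scaled to the length of the gene and to the mapped reads of the library, so levels of different genes can be compared per length. No read counts came with them. The steps between low values give relative depth: with fibroblast line A set to 1.0, the other control libraries lay between 1.03 and 1.05, line A at P10 at 1.26, line B at P10 at 1.56 and the 8 later libraries between 1.33 and 1.93. The same steps give, for each HOX value, the smallest whole number of reads that it can stand for. These numbers are used below only to show how few reads a value rests on. Fibroblast markers averaged 8.67 and 8.74 on the log2(RPKM + 1) scale in the fibroblasts, 0.62 and 0.77 in the blastocysts and 3.17 to 4.61 in the stem cells. Pluripotency markers averaged 5.81 to 6.59 in the stem cells, 3.12 and 3.14 in the blastocysts and 0.09 and 0.27 in the fibroblasts. The feature list of the later passages holds 5 of these 7 markers, so the means there rest on fewer genes. GAPDH is listed at 0 in all 14 libraries, so a listed 0 can be a failed estimate.

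HOX transcripts were scarce in every sample. Of 490 HOX values, 333 were above 0 and 17 reached 1 RPKM. Only 6 members reached 1 RPKM in any library: HOXA2, HOXB7, HOXB9, HOXC6, HOXC8 and HOXC9. The highest value of all was 2.76 RPKM, for HOXB9 in blastocyst pool B. HOXB1 and HOXB13, at the opposite ends of the HOXB cluster, are listed at 0 in all 14 libraries.

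**Figure D1:**
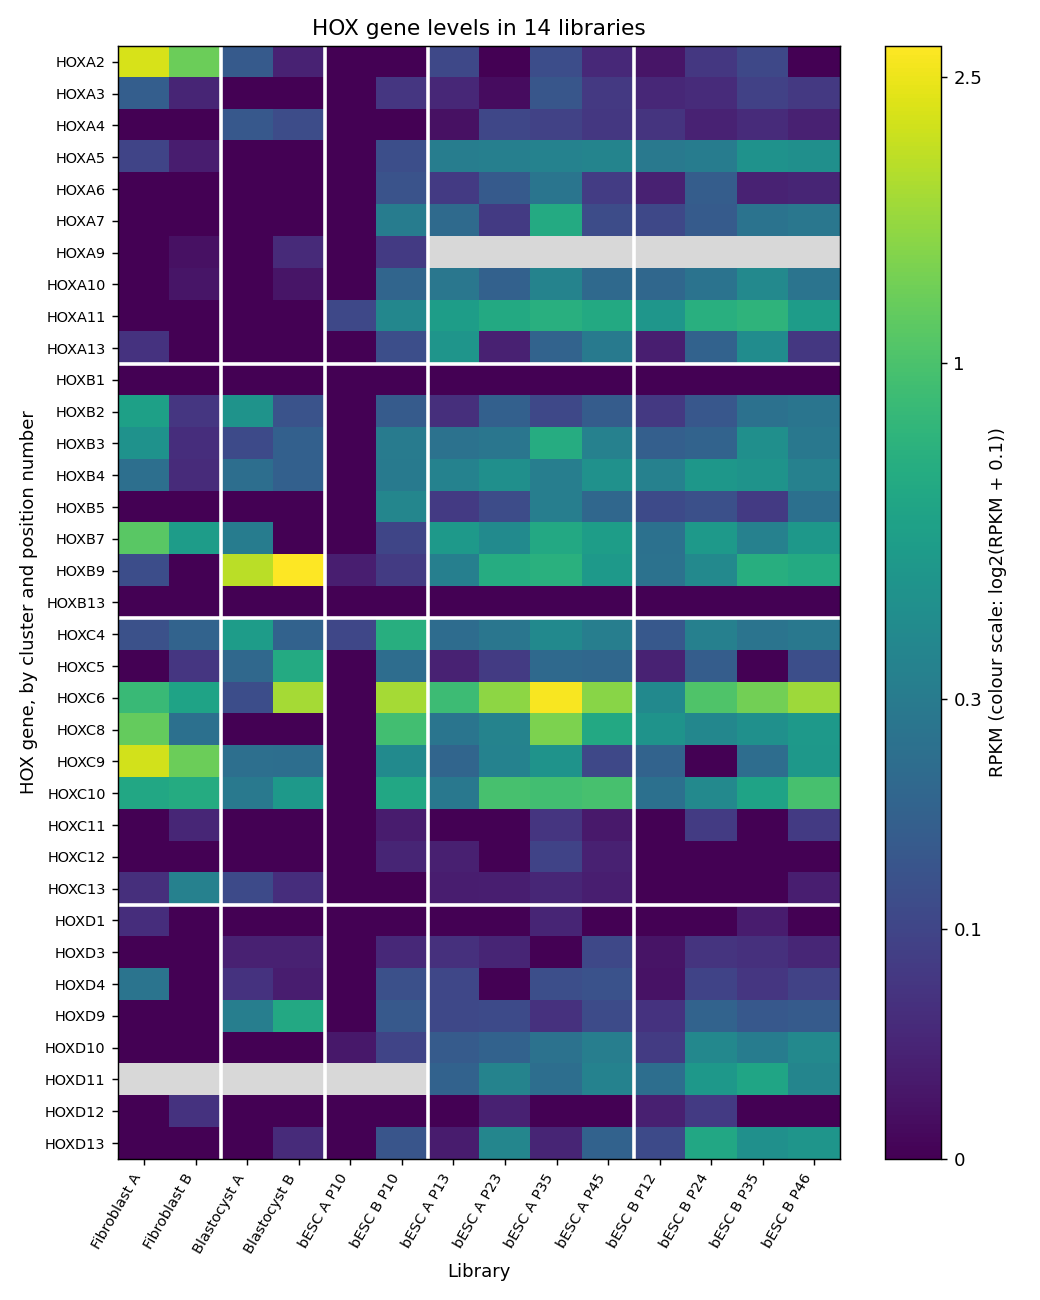
RPKM of HOX genes (rows, by cluster and position number) in each of the 14 libraries (columns), with colour on a log2(RPKM + 0.1) scale and grey where a file set does not list the gene. Bright cells include HOXA2 and HOXC9 in the fibroblasts (1.25 to 2.22 RPKM), HOXB9 in the blastocysts (1.91 and 2.76) and HOXC6 in most stem cell libraries (up to 2.67), and the column of line A at P10 is dark for nearly all genes shown.

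In the skin fibroblasts, 13 of 35 members were above 0 in both lines and 12 were listed at 0 in both. The genes at 0 included 4 of the 7 HOXD members listed there, HOXD3, HOXD9, HOXD10 and HOXD13. HOXD was the cluster with no member above 0 in both lines. The HOXC cluster supplied 48.5% (line A) and 61.0% (line B) of the summed HOX level, and HOXD 3.05% and 1.13%. The summed HOX level was 10.5 RPKM in line A, from 226 reads at the least, and 5.60 RPKM in line B, from 114. Line A was thus the higher of the lines, although the relative depth of the lines was 1.0 and 1.04.

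HOXA2, which patterns the hindbrain and the neural crest of the second branchial arch, measured 2.22 and 1.25 RPKM in fibroblast lines A and B. Its levels were 0.158 and 0.038 RPKM in the blastocyst pools, was listed at 0 in both stem cell lines at P10, and lay between 0 and 0.121 RPKM (median 0.059) in the later stem cell libraries. The fibroblast values stand for at least 55 and 32 reads and the blastocyst values for 4 and 1. Both fibroblast lines were above each of the other 12 libraries.

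HOXC9, a posterior gene of the thoracic region, measured 2.16 and 1.25 RPKM in the fibroblasts. It measured 0.241 and 0.235 RPKM in the blastocysts, 0 and 0.396 in lines A and B at P10, and 0 to 0.495 (median 0.214) in the later libraries. Both fibroblast lines were again above all other libraries. The fibroblasts thus carried an anterior HOXA gene and a posterior HOXC gene as their highest members. Anterior genes supplied 33.3% and 26.2% of the summed HOX level in lines A and B, central genes 37.5% and 30.8%, and posterior genes 29.2% and 43.1%.

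HOXB7, a central gene of the trunk, reached 1 RPKM in 1 fibroblast line only. Its fibroblast levels were 1.11 RPKM (line A) and 0.536 (line B), from at least 14 and 7 reads. The blastocysts were at 0.310 and 0, the stem cells at P10 at 0 and 0.102, and the later stem cells at 0.247 to 0.656 RPKM (median 0.505). Its fibroblast values were above both blastocyst pools, and the value of line B lay within the range of the later stem cells.

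**Figure D2:**
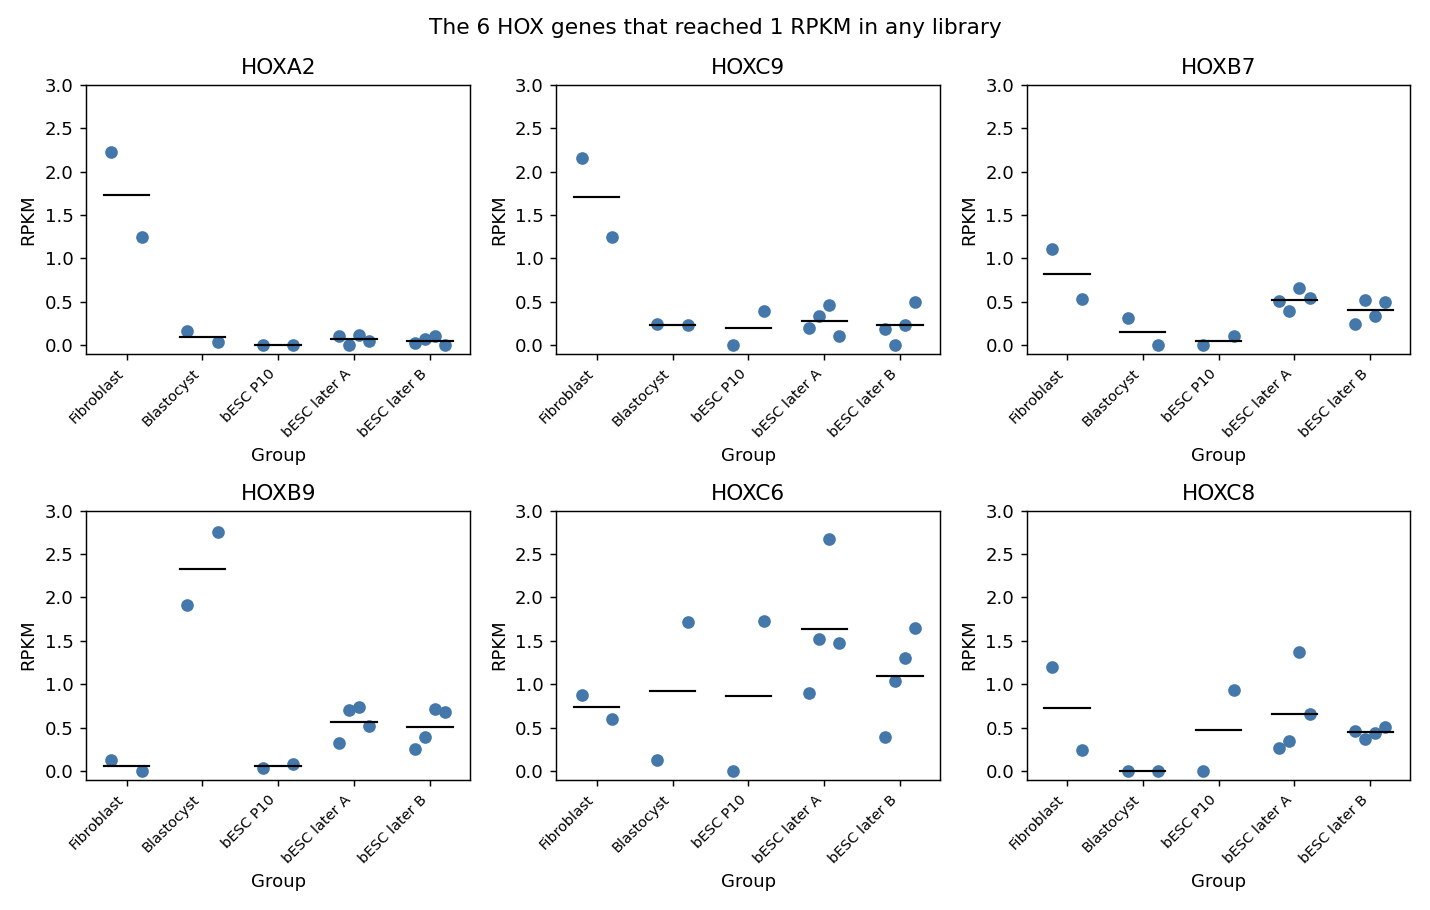
RPKM of the 6 HOX genes that reached 1 RPKM in any library, with a point for each library and a black line at the mean of each group. HOXA2 and HOXC9 are highest in the fibroblasts (1.25 to 2.22 RPKM), HOXB9 in the blastocysts (1.91 and 2.76 RPKM), and HOXC6 is spread widely in the blastocysts and in the stem cells.

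The blastocyst pools carried a different set. In both pools 15 of 35 members were above 0, and 16 were listed at 0 in both, among them 7 of the 11 HOXA members. HOXB9, a posterior gene whose transcript is known from oocytes and early embryos, measured 1.91 RPKM in pool A and 2.76 in pool B, from at least 48 and 71 reads. It measured 0.122 and 0 RPKM in the fibroblasts, 0.033 and 0.079 in lines A and B at P10, and 0.254 to 0.735 (median 0.597) in the later libraries. Both pools were above every other library. In the RefSeq annotation HOXB9 overlaps HOXB8, and the sources used here do not say whether counting used strand, so reads of that neighbour cannot be told apart.

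HOXB9 made up 1.91 of the 3.02 RPKM of the HOXB cluster in pool A. HOXB supplied 57.4% of the summed HOX level there and 42.6% in pool B, against 24.0% and 12.7% in the fibroblasts. HOXA supplied 5.91% and 2.97% in the pools. Posterior genes held 54.5% and 56.7%, anterior genes 14.5% and 5.12%. In the pools the posterior share was above that of both fibroblast lines and the anterior share below. These shares rest largely on HOXB9 and HOXA2. HOXB9 made up 1.91 of 2.87 and 2.76 of 4.33 RPKM of the posterior genes in pools A and B. HOXA2 made up 2.22 of 3.48 and 1.25 of 1.465 RPKM of the anterior genes in fibroblast lines A and B.

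HOXC6, a central gene of the thoracic region, set the pools apart from each other. It measured 0.122 RPKM in pool A and 1.72 in pool B, from at least 2 and 29 reads, whereas the fibroblasts were at 0.874 and 0.602. HOXC5 and HOXC4, its neighbours in the cluster, did not follow as a pair: HOXC5 measured 0.209 and 0.680 RPKM in pools A and B, and HOXC4 0.541 and 0.186. Among the posterior genes HOXD9, of the tail-ward end of the HOXD cluster, measured 0.317 and 0.656 RPKM in the pools and 0 in each fibroblast line.

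The test of fibroblasts against blastocysts was limma on log2(RPKM + 1), fitted to all genes at 1 RPKM or more in at least 2 of the 6 control and P10 libraries, with Benjamini-Hochberg adjustment under 0.05. Only 4 HOX members passed that level filter: HOXA2, HOXB9, HOXC6 and HOXC9. HOXA2 and HOXC9 passed it only through the 2 fibroblast lines and HOXB9 only through the 2 pools, so that a difference was largely fixed by the filter for these 3, and their calls, those at P10 below included, are given as a description. The median gene of this fit was 1.15 higher in fibroblasts than in blastocysts on the log2 scale, so differences are also given relative to it. HOXA2 was higher in fibroblasts by 1.30 ± 0.20 (SE; adjusted p = 0.000922), which is 0.14 above the median gene. HOXC9 was higher by 1.11 ± 0.23 (adjusted p = 0.00425), which is -0.05 relative to the median gene, and under quantile normalization its difference was 0.28 with an adjusted p of 0.224. HOXB9 was lower in fibroblasts, with a difference of -1.64 ± 0.17 (adjusted p = 0.000174) or -2.80 relative to the median gene. For HOXC6 the difference was -0.01 ± 0.56 (adjusted p = 0.996). The pseudocount of 1 understates differences at levels this low, so the values relative to the median gene depend on it. Mean levels in fibroblasts and blastocysts were 1.74 and 0.098 RPKM for HOXA2, and 1.70 and 0.238 RPKM for HOXC9.

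The members' calls stand beside a background in which most genes changed. Of all 11761 genes tested, 63.4% were called higher in fibroblasts and 11% lower, against 2 and 1 of the 4 members, a count from which nothing is read since the filter chose them. Without the level filter 33 members were tested, and 3 were called higher (HOXA2, HOXB7, HOXC9) and 3 lower (HOXA4, HOXB9, HOXD9), where 43% and 8.94% of all genes were called. The additional calls rest on low values. HOXB7 had a difference of 0.65 ± 0.20 (adjusted p = 0.0452). HOXA4 measured 0.153 and 0.119 RPKM in the pools and is listed at 0 in both fibroblast lines (adjusted p = 0.00935), as is HOXD9 (adjusted p = 0.0172). In stem cell lines A and B at P10 HOXA4 is listed at 0 in both and HOXD9 at 0 and 0.156 RPKM. In the later libraries HOXA4 measured 0.017 to 0.104 RPKM (median 0.058) and HOXD9 0.061 to 0.192 (median 0.114). By values alone, both fibroblast lines lay above both pools for 7 of 35 members (HOXA2, HOXA3, HOXA5, HOXB7, HOXC8, HOXC9 and HOXC10), where 41.4% of all features did. Both pools lay above both lines for 5 (HOXA4, HOXB9, HOXC5, HOXD3 and HOXD9), where 12% of all features did.

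At P10 the stem cell lines differed in their HOX content. In line A only 4 of 35 members were above 0, and their levels were 0.106 RPKM for HOXA11, 0.104 for HOXC4, 0.033 for HOXB9 and 0.024 for HOXD10. Together they came to 0.267 RPKM, from at least 9 reads. In line B 27 of 35 members were above 0, with a sum of 7.998 RPKM from at least 277 reads, within the range of the later passages. All 27 were higher in line B than in line A, and the other 8, with HOXA2, HOXA4, HOXB1, HOXB13 and HOXC13 among them, are listed at 0 in both. Of all features, 38.9% were higher and 32% lower in line B at P10.

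Depth differed less than that. Reads per unit of relative depth came to 7.17 in line A and 178 in line B. Line B at P10 was led by HOXC6 at 1.73 RPKM, then HOXC8 at 0.933, HOXC4 at 0.713, HOXC10 at 0.645 and HOXC9 at 0.396. HOXC supplied 58.9% of its HOX level and central genes 63.3%. Line A has 1 library at P10, so its difference from line B has no replicate check and no test was made.

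The fibroblast marker list was higher in line B than in line A at P10 for all 10 genes, where 38.9% of all features were higher and 32% lower. All 10 were above 0 in both lines, with summed levels of 662 (A) and 1015 RPKM (B). Its mean was 3.17 and 4.18 on the log2(RPKM + 1) scale. In line A the collagen gene COL1A2 was at 3.76 RPKM, against 26.02 in line B, and the mesenchymal homeobox gene PRRX1 was at 0.653 against 7.79. EN1, a homeobox gene of ventral ectoderm and midbrain, measured 0.107 and 3.36 RPKM, and the dermal regulators TWIST2 and TBX15 0.216 and 2.04, and 0.096 and 1.63. These 5 genes were picked after their values were seen. Of the whole list of positional factors of mesenchyme, which holds the last 4, 18 of 28 were higher and 9 lower in line B at P10; among the lower, DLX5 was at 3.05 RPKM in line A against 1.13. All 7 pluripotency markers were lower in line B. Later passages of both lines were at 19.9 to 35.5 RPKM for COL1A2 and 8.03 to 16.8 for PRRX1. Line A at P10 was thus lowest of the 10 stem cell libraries for both genes and for the HOX sum. In bulk RNA, fewer cells of a type and less RNA per cell cannot be told apart. The part of fibroblast-like cells or feeder RNA in the HOX values was not tested.

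Against fibroblasts, the P10 stem cells were lower for 2 of the 4 members tested and higher for 0, and limma gave 2 an unadjusted p under 0.05. HOXA2, listed at 0 in both stem cell lines, had a fitted difference of -1.43 ± 0.20 (adjusted p = 0.00112), a value that depends on the pseudocount. HOXC9 had a difference of -1.17 ± 0.23 (adjusted p = 0.00528), or -1.40 relative to the median gene, which was 0.23 higher in stem cells. HOXB9 and HOXC6 had differences of -0.00 ± 0.17 and -0.07 ± 0.56 and no call. Over all genes, 21.9% were called lower and 35.4% higher at P10. Without the level filter, 3 of 33 members were called lower (HOXA2, HOXB7 and HOXC9) and 0 higher. Of all 17504 genes, 14.3% and 26.7% were called. An unadjusted p under 0.05 was found for 4 members and for 8627 of all genes.

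Against blastocysts, HOXB9 was the member that was lower at P10, by a difference of -1.65 ± 0.17 (adjusted p = 0.000155), or -3.08 relative to a median gene that was 1.43 higher in the stem cells. HOXA2, HOXC6 and HOXC9 were not called, with differences of -0.13 ± 0.20, -0.08 ± 0.56 and -0.07 ± 0.23. Over all genes 7.33% were called lower and 73% higher, against 1 and 0 of the 4 members, and limma gave 1 member an unadjusted p under 0.05. Without the level filter, 3 of 33 members were called lower (HOXA4, HOXB9 and HOXD9) and 0 higher, where 6.47% and 53.3% of all genes were called. Since both comparisons use the same P10 libraries, and each shares its controls with the comparison of fibroblasts and blastocysts, the lists are not independent.

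**Figure D3:**
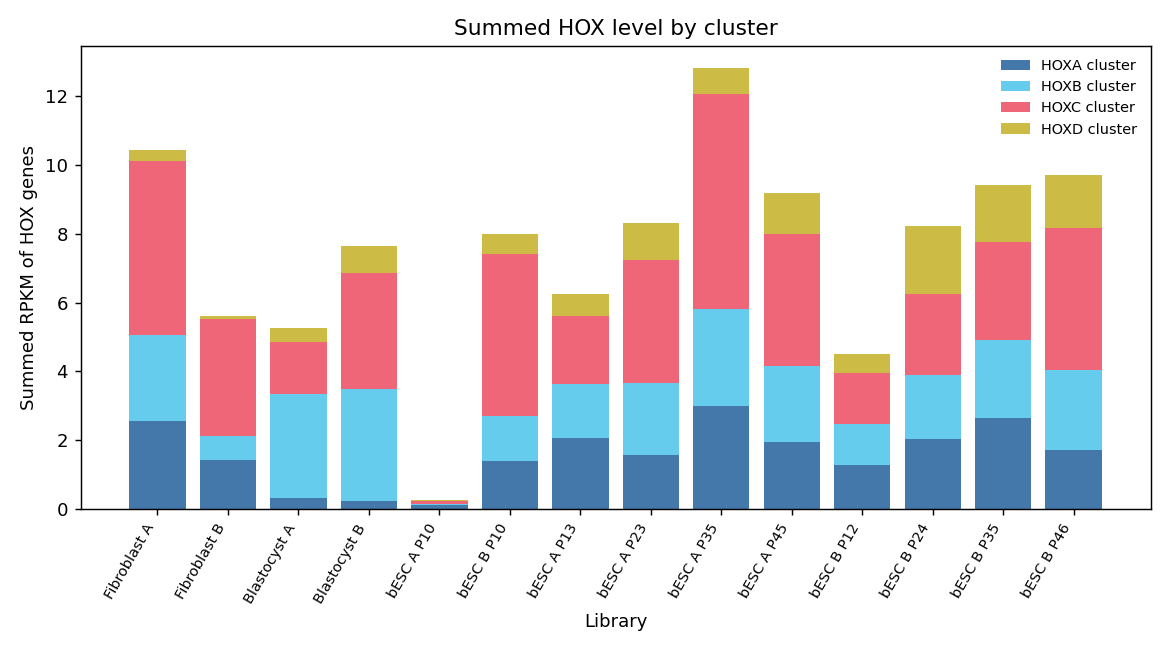
Summed RPKM of the HOX genes in each library, stacked by cluster (HOXA, HOXB, HOXC, HOXD). Line A at P10 comes to 0.267 RPKM, line B at P10 to 7.998 RPKM and the 8 later stem cell libraries to between 4.51 and 12.8 RPKM. The later sums include HOXD11 and lack HOXA9, and the other sums the reverse.

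From passage 12 on, HOX transcripts were present in both lines at low levels and across all clusters. The 8 later libraries had 28 to 31 of 35 members above 0, and 22 members were above 0 in all 8 libraries. The summed HOX level ran from 4.51 RPKM (line B at P12) to 12.8 RPKM (line A at P35), from at least 215 to 437 reads a library. HOXC supplied 28.8% to 48.7% of it, HOXA 17.8% to 33.1%, HOXB 22.1% to 26.5% and HOXD 5.89% to 23.8%. Anterior genes supplied 6.40% to 11.2%, central genes 39.6% to 58.0% and posterior genes 32.7% to 49.2%. These sums and shares include HOXD11 and lack HOXA9, the reverse of the controls and P10, so they are not fully alike. Over the members in both sets of files, the later sums ran from 4.28 to 12.6 RPKM. The anterior share was below that of both fibroblast lines, where HOXA2 made up most of the anterior level, in every later library.

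HOXC6 led 7 of the 8 later libraries. In line A it measured 0.898 RPKM at P13, 1.52 at P23, 2.67 at P35 and 1.47 at P45. In line B it measured 0.389 at P12, 1.03 at P24, 1.30 at P35 and 1.65 at P46. Its lowest value in each line was thus at the earliest of these passages, but at P10 it measured 0 in line A and 1.73 in line B, from at least 43 reads.

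HOXC8, a central gene of the thoracic region and neighbour of HOXC6, measured 0.269, 0.349, 1.37 and 0.652 RPKM in line A at P13, P23, P35 and P45. In line B it measured 0.458, 0.373, 0.438 and 0.507 at P12, P24, P35 and P46. It was listed at 0 in both blastocyst pools and measured 1.199 and 0.244 in the fibroblasts. The value of line A at P35 stood clear of the other later libraries and was near that of fibroblast line A.

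Several members were above 0 in the later stem cells and listed at 0 in both kinds of control. They were named for this pattern, and its share among all features was not counted, so nothing is read from their number. Of all shared features, 37.9% were higher in every later library than in both fibroblast lines, and 57.4% than in both blastocyst pools. HOXA11, a limb and uterus patterning gene, measured 0.483 to 0.780 RPKM (median 0.661) in the later libraries, from at least 21 to 33 reads, and 0.106 and 0.370 in lines A and B at P10. It is listed at 0 in all 4 control libraries. HOXD10, HOXA6, HOXA7 and HOXB5 are likewise listed at 0 in all 4, and measured 0.080 to 0.387, 0.037 to 0.266, 0.076 to 0.672 and 0.076 to 0.321 RPKM in the later libraries. These values rest on at least 5 to 22, 1 to 5, 2 to 13 and 2 to 6 reads, in libraries deeper than the controls. Line B at P10, from the files of the controls, had them at 0.099, 0.137, 0.310 and 0.367 RPKM. In line A at P10 HOXD10 was at 0.024 and the others at 0. In the RefSeq annotation HOXD10 overlaps HOXD11, HOXA6 overlaps HOXA5 and HOXB5 overlaps HOXB3. The later passages come in a second set of files with another feature list, and whether both sets were processed in 1 run is not stated in the sources used here, so these levels are only set side by side.

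The remaining members stayed low, and are given by range. Of the anterior genes, HOXB2 measured 0.576 and 0.069 RPKM in the fibroblasts, 0.456 and 0.137 in the pools and 0.057 to 0.268 in the later libraries. HOXB3 measured 0.454 and 0.055, 0.111 and 0.180, and 0.176 to 0.695 RPKM in the same groups. HOXA3, HOXD1 and HOXD3 did not exceed 0.172 RPKM in any library. Of the central genes, HOXB4 measured 0.241 and 0.052 RPKM in the fibroblasts, 0.235 and 0.178 in the pools and 0.322 to 0.491 in the later libraries, and HOXD4 did not exceed 0.264 RPKM. Of the posterior genes, HOXA10, HOXA13 and HOXD13 did not exceed 0.064 RPKM in any control and reached 0.385, 0.475 and 0.647 RPKM in the later libraries. HOXC13 had its highest value, 0.334 RPKM, in fibroblast line B, and HOXA9, HOXC11, HOXC12 and HOXD12 did not exceed 0.095 RPKM anywhere.

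Across those tables, all 8 later libraries lay above both fibroblast lines for 12 of 34 shared members, where 37.9% of all 18440 shared features did. They lay below both lines for 3 (HOXA2, HOXC9 and HOXC13), where 16.3% did. All 8 lay above both blastocyst pools for 11 members, where 57.4% of features did, and below both for 4 (HOXA4, HOXB9, HOXC13 and HOXD9), where 6.91% did. The share above the fibroblasts was near that of all features, and the share above the blastocysts was smaller than it.

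HOXB9 in the later stem cells was between its levels in the controls. In line A it measured 0.326, 0.699, 0.735 and 0.515 RPKM at P13, P23, P35 and P45, and in line B 0.254, 0.386, 0.718 and 0.679 at P12, P24, P35 and P46. All 8 values were above both fibroblast lines and both P10 libraries and below both blastocyst pools. HOXC10, a posterior gene of lumbar and hindlimb regions, measured 0.283, 0.979, 0.931 and 0.983 RPKM in line A at P13, P23, P35 and P45. In line B it measured 0.245, 0.384, 0.599 and 0.982 at P12, P24, P35 and P46. At P10 it is listed at 0 in line A and measured 0.645 in line B, above 3 of the 4 later values of that line. The fibroblasts were at 0.650 and 0.684 and the pools at 0.288 and 0.506, inside that range.

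**Figure D4:**
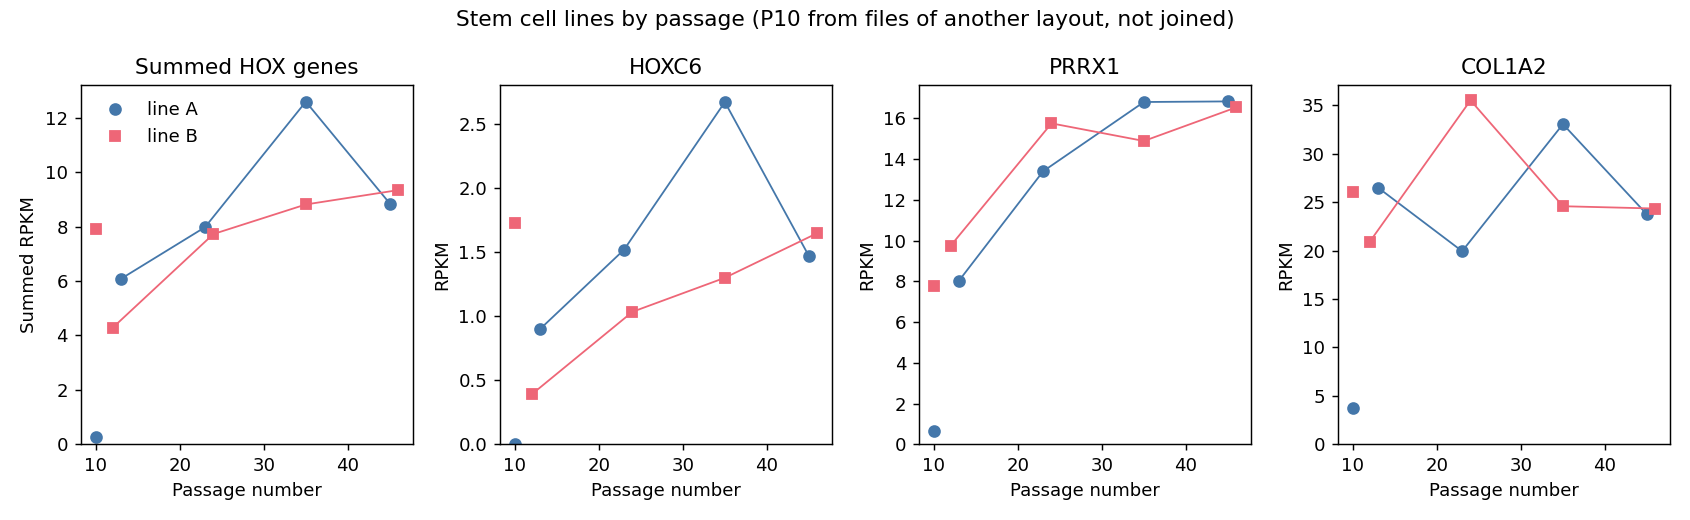
Summed RPKM of the 34 HOX genes in both file sets, and RPKM of HOXC6, PRRX1 and COL1A2, against passage number for lines A (circles) and B (squares). P10 is not joined because its files have another feature list. Line A at P10 is the lowest point in all 4 panels, while line B at P10 lies within or near the later values.

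Whether HOX levels moved with passage was tested with limma in all 10 libraries of the stem cells, in a model of line, passage and a P10 term. A term for P10 was needed because P10 and the later passages come from different sets of files, so a step between them and a difference between the sets cannot be told apart. HOXC6 was the only member to pass the level filter there. Its slope was 0.21 ± 0.12 per 10 passages (adjusted p = 0.990), where 0% of all 10726 genes were called. The difference of line B from line A was 0.02 ± 0.28 (adjusted p = 0.982), where 0.0186% of genes were called. The difference between the slopes of the lines was -0.23 ± 0.20 (adjusted p = 0.999), where 0% of genes were called. None of these 3 tests gave HOXC6 an unadjusted p under 0.05. In the later libraries alone, its slope was 0.21 ± 0.07, with an unadjusted p of 0.0127 and an adjusted p of 0.959 at a filter of 0.3 RPKM chosen after the data were seen. At the planned filter of 1 RPKM, limma in the same libraries also gave HOXC6 an unadjusted p under 0.05 and no call. Such a p was found for 415 of all 10614 genes there.

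Without the level filter 32 members were tested for a slope and 0 were called. Unadjusted p was under 0.05 for 4, and for 495 of all 15733 genes. The 4 members all had a positive slope: HOXD10 (0.07 ± 0.02 per 10 passages), HOXB2 (0.05 ± 0.02), HOXB9 (0.10 ± 0.04) and HOXC10 (0.18 ± 0.07). Each of these had an adjusted p of 1.00. For the difference between lines and that between slopes, 0 of 32 were called and 2 each had an unadjusted p under 0.05. Of all 15733 genes, 1573 had such a p between lines and 380 between slopes.

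The step between P10 and the later passages was -0.06 ± 0.42 for HOXC6 (adjusted p = 0.933), where 15.9% of all genes were called in either direction. Without the level filter 1 of 32 members was called, HOXA5, a central gene of lung and axial patterning, which was lower at P10 by a difference of -0.28 ± 0.05 (adjusted p = 0.0165), where 8.05% of genes were called lower. Its P10 levels were 0 (line A) and 0.125 RPKM (line B), against 0.287 to 0.451 RPKM (median 0.333) from P12 on. HOXA5 overlaps HOXA3 and HOXA6 in the RefSeq annotation, so its reads may be shared with them. By values, line A at P10 was below all 4 later libraries of its line for 24 of 34 members, where 35.2% of all shared features were. Line B at P10 was below all 4 of its own for 7 members, where 29.9% of features were, and above all 4 for 8, where 25.3% were. No test was made of these counts, which cross the sets of files.

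Genes known to control or assist HOX genes were listed as context. Their counts stand beside the shares over all genes given above: 63.4% higher and 11% lower in fibroblasts than in blastocysts, 35.4% and 21.9% at P10 against fibroblasts, and 73% and 7.33% at P10 against blastocysts. The all-gene medians of these differences were 1.15, 0.23 and 1.43. TALE homeodomain proteins bind DNA together with HOX proteins. Of 7 tested, 5 were higher and 1 lower in fibroblasts than in blastocysts (median difference 1.21), 3 were higher and 2 lower at P10 than in fibroblasts (0.46), and 7 were higher at P10 than in blastocysts (2.72). MEIS1, a HOX cofactor, measured 23.7 and 18.1 RPKM in fibroblasts, 0.052 and 0.050 in blastocysts and 1.42 and 1.93 at P10. It was lower at P10 than in fibroblasts by a difference of -3.03 ± 0.22 (adjusted p = 0.000101). PKNOX2 measured 16.2 and 16.9 RPKM at P10 against 0.568 and 0.037 in fibroblasts, a difference of 3.78 ± 0.24 (adjusted p = 5.76e-05). At P10 the level of MEIS1 was above that of every HOX gene in the same library, as was that of PKNOX2.

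CDX proteins activate HOX genes in the posterior embryo. CDX2, which also marks trophectoderm, measured 13.8 and 15.9 RPKM in the blastocysts and is listed at 0 in the other 12 libraries. CDX4, named after its values were seen, is listed at 0 in the controls and at P10 and measured 0.134 to 0.798 RPKM in the later libraries. The trophectoderm list as a whole had 6 of 6 genes at 1 RPKM or more in both pools, with summed levels of 488 and 374 RPKM. It had 2 of 6 in the fibroblasts, with 7.63 and 11.5 RPKM. It had 1 gene, KRT18, in each stem cell library, with summed levels of 42.0 and 38.1 RPKM in lines A and B at P10. In the later libraries the sum, taken without PAG2, which their feature list does not hold, was 81.3 to 275 RPKM. HOXB9 and CDX2 were thus highest in the same libraries, and the part of trophectoderm RNA in the HOXB9 value was not tested.

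Retinoic acid induces HOX genes in order along the cluster, and CYP26 enzymes break it down. Of 14 retinoid pathway genes tested, 8 were higher and 0 lower in fibroblasts than in blastocysts (median difference 2.04), 4 were higher and 5 lower at P10 than in fibroblasts (-0.04), and 9 were higher and 0 lower at P10 than in blastocysts (1.76). The last count was a smaller share than that of all genes called higher. CYP26A1 reached 95.5 and 92.3 RPKM at P10, against 13.8 to 41.2 RPKM from P12 on. It is listed at 0 in both fibroblast lines and measured 0 and 0.030 RPKM in the pools. At the step between P10 and the later passages it was higher at P10 by 1.62 ± 0.39 (adjusted p = 0.0241). In that test, 2 of 14 were higher and 1 lower at P10, where 247 and 1461 of all 10726 genes were. A step at P10 cannot be told apart from a difference between the sets of files.

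Polycomb proteins keep HOX clusters silent and trithorax proteins keep them active. Of 19 polycomb genes tested, 9 were higher and 4 lower in fibroblasts than in blastocysts (median difference 0.68), 9 were higher and 4 lower at P10 than in fibroblasts (0.45), and 14 were higher and 1 lower at P10 than in blastocysts (1.54). The last count was near the share of all genes called higher. JARID2, which helps bring the polycomb repressive complex to its targets, measured 86.8 and 73.8 RPKM at P10, 0.981 and 1.22 in fibroblasts and 17.9 and 16.5 in blastocysts, and CBX2, a chromobox subunit, 52.6 and 35.8 RPKM at P10 and 0.695 and 1.31 in fibroblasts. JARID2 was higher at P10 than in fibroblasts by 5.27 ± 0.18 (adjusted p = 1.71e-05) and CBX2 by 4.49 ± 0.27 (adjusted p = 5.36e-05). Of 8 trithorax genes tested, 5 were higher and 1 lower in fibroblasts than in blastocysts (0.89), 5 were higher and 0 lower at P10 than in fibroblasts (0.89), and 6 were higher and 1 lower at P10 than in blastocysts (1.55). MEN1, which encodes menin, measured 29.5 and 30.7 RPKM at P10 against 12.4 and 9.42 in fibroblasts, a difference of 1.40 ± 0.21 (adjusted p = 0.00178).

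Genes that flank the HOX clusters share their chromosomal surroundings. Of 10 tested, 9 were higher and 1 lower in fibroblasts than in blastocysts (median difference 1.84), 4 were higher and 2 lower at P10 than in fibroblasts (-0.06), and 9 were higher and 0 lower at P10 than in blastocysts (2.44). CBX5, beside the HOXC cluster, measured 113 and 99.2 RPKM at P10 and 22.4 and 28.1 in fibroblasts, a difference of 2.04 ± 0.26 (adjusted p = 0.000899). HIBADH, beside the HOXA cluster, measured 50.2 and 46.6 RPKM in fibroblasts, 3.91 and 5.78 in blastocysts and 40.0 and 39.9 at P10. Both neighbours were thus above every HOX gene in the fibroblasts and at P10. Other neighbours were not: EVX1, SKAP1 and TTLL6 did not exceed 0.088 RPKM in those libraries and did not pass the level filter.

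Other transcription factors that mark body position in mesenchyme were listed beside the HOX genes. Of 16 tested, 11 were higher and 3 lower in fibroblasts than in blastocysts (median difference 2.67), 4 were higher and 10 lower at P10 than in fibroblasts (-2.36), and 5 were higher and 1 lower at P10 than in blastocysts (0.49). PRRX2 measured 216 and 146 RPKM in fibroblasts and 0.414 and 0.708 at P10, a difference of -6.85 ± 0.28 (adjusted p = 2.32e-05). LHX2, a factor of forebrain and limb, went the other way, with 17.6 and 16.3 RPKM at P10 and 0 and 0.027 in fibroblasts (adjusted p = 2.60e-05). In the fibroblasts PRRX2 was thus above every HOX gene, of which none exceeded 2.22 RPKM.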

How the data were processed

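Total RNA of 14 cattle libraries was sequenced after TruSeq RNA library preparation, per the labels' protocols. The authors deposited 1 file of RPKM values per library, with no read counts. The submitters' processing notes name the build UMD3.1 and also edgeR. The aligner, counter, strand use and annotation were not given in the sources used here. The 6 control and P10 files share a feature list (23159 used, after 26 unreadable names, 25 dates and 21 blank values were left out), and the 8 later files share another (24616 used). Names common to both without a copy suffix numbered 18440. RefSeq gene names matched all 36 members, with positions left out because the builds differ.

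Relative depth and smallest whole read numbers came from the ratios of low values between libraries, with a tolerance of 0.15 reads. Of 32 members with a step in both file sets, 29 had steps in the common ratio of 1.88 within 5%. For the other 3 (HOXA6, HOXA7 and HOXB5, above 0 in 1 library of the first set) the ratio was a whole multiple of it and the reads were multiplied accordingly. Without deposited counts, no counting interval or count test is given. Tests used limma 3.58.1 in R 4.3.3 on log2(RPKM + 1), which understates changes of low genes, for genes at 1 RPKM or more in at least 2 libraries, with a mean-variance trend and Benjamini-Hochberg adjustment over all genes fitted, two-sided at 0.05. Fibroblasts, blastocysts and P10 stem cells were fitted together, and all stem cell libraries in a second fit on line, passage and a P10 term. The scripts were tested on simulated data. Tables were handled in Python 3.11.15 with pandas 2.3.3.

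Values of every library, or the lowest, median and highest of the later libraries, are printed for HOX genes called in any fit or at 1 RPKM or more in a blastocyst or stem cell library, and other members by range, except HOXA11, HOXC4, HOXC5 and HOXC10, which were added after their values were seen. Of each context list, up to 3 called genes with the smallest adjusted p in a comparison may be named, with values chosen after they were seen marked so. Some genes are not reported here. The members and lists were chosen with earlier results of these data known. Alternatives were other pseudocounts, filters, scalings, no trend, a replicate block, the later libraries alone and leaving out each library.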

Additional observations from a re-analysis of the deposited data

Results flagged for a closer look

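HOXC8 in stem cell line A at P35 measured 1.37 RPKM, apart from the other later values. It was the only such value among 7 groups of 4 to 8 values that were examined, and chance flags about 1 in 20. HOXC6 was highest in the same library, at 2.67 RPKM, as was the summed HOX level, at 12.8 RPKM. That library had the lowest relative depth of the later libraries, 1.33, and a fibroblast marker mean of 4.61, the highest of the stem cell libraries. Their part in the value was not tested.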

How the results depend on the processing

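Under quantile normalization 1 member was higher in fibroblasts than in blastocysts in place of 2, with HOXC9 lost, and 2 were lower at P10 than in blastocysts in place of 1, with HOXC9 added at -0.87 (adjusted p = 0.0057). With no level filter, 3 members were lower in fibroblasts than in blastocysts in place of 1, 3 were lower at P10 than in blastocysts in place of 1, and 1 had a step at P10 in place of 0. With a filter of 0.3 RPKM the first pair of counts was 2 and 2, with HOXD9 added in both. The other 154 counts under alternatives stayed within 1.5 times the reported ones, including those that left out each library in turn (2 and 1 for fibroblasts against blastocysts). Many of them were counts of 0 that stayed 0, such as those for line and slope, with 1 member tested in most settings. The level filter was applied before a library was left out, so HOXA2, HOXB9 and HOXC9 stayed in. This stability was thus largely fixed beforehand, and nothing is read from it. No result reversed.

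With the letters A and B as a replicate block, 2 members were higher and 1 lower in fibroblasts than in blastocysts, 2 were lower at P10 than in fibroblasts and 1 than in blastocysts, as without it. The letters name separate pools and lines and do not pair samples. Over 11761 genes, the difference of A from B had a correlation of 0.19 between blastocysts and fibroblasts, -0.08 between P10 and blastocysts and -0.10 between P10 and fibroblasts.

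HOX values rest on few reads, and a listed 0 is no proof of absence. Of 36 members, 4 were tested in the control fit and 1 across passages.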

Other observations

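The first set of files holds an entry named HOXD, with no number, which RefSeq gives as an older symbol of HOXD11. It measured 0.157 RPKM in line B at P10 and is listed at 0 in the other 5 libraries of that set. HOXD11 itself measured 0.186 to 0.615 RPKM in the 8 later libraries. The microRNA genes of the HOX clusters, bta-mir-10a, bta-mir-10b, bta-mir-196a-2 and bta-mir-196b, are listed at 0 in all 14 libraries. The entry bta-mir-196a-1 measured 0.338 RPKM in line B at P10, 0.291 in line A at P23 and 0.604 in line B at P46, and is listed at 0 in the others.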
